A study of Homo sapiens with 18 samples.

Results

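The nuclear genes that encode subunits of the respiratory chain and the ATP synthase were followed in MCF10A cells that had lost CBFB or RUNX1. Members were all rows of the 3 deposited knockout tables whose gene symbol fits the naming of complex I to complex V subunits, with CYC1 and CYCS added. The naming rule itself used no measured value, though the set was chosen with earlier results of these data known. The rule gave 82 genes of 19401 listed in any table. Of these, 36 belong to complex I, 4 to complex II, 9 to complex III, 13 to complex IV and 16 to complex V, and CYCS encodes cytochrome c. The naming also took in 3 genes that are not subunits, namely ATP5S, ATP5SL and the pseudogene ATP5EP2. NDUFA4 is counted with complex IV, where its protein is found. COX4I1 and NDUFAB1 encode subunits too but fall outside the naming.

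The respiratory chain sits in the inner mitochondrial membrane. Complex I takes electrons from NADH and complex II from succinate, complex III passes them to cytochrome c, and complex IV passes them to oxygen. Complexes I, III and IV move protons across the membrane, and the ATP synthase, complex V, uses their return to make ATP. Most subunits are encoded in the nucleus and the rest in mitochondrial DNA, so assembly needs both genomes. None of the mitochondrially encoded subunit genes was listed in the tables.

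MCF10A is an immortalized, non-tumorigenic human mammary epithelial line, grown here with horse serum, insulin, EGF, hydrocortisone and cholera toxin and given no further treatment. CBFB, the partner that lets RUNX proteins bind DNA well, or RUNX1 itself had been disrupted with CRISPR, and knockout cells were grown from single-cell colonies. RNA of 18 samples was sequenced. CBFB KO and its WT had 3 samples each, and RUNX1 KO1, RUNX1 KO2 and the WT that both RUNX1 clones share had 4 each. Nothing says that a knockout group held more than 1 clone, so clone and genotype cannot be told apart. Nothing says that the repeats came from separate cultures, so p-values measure the spread between these samples, which may be technical.

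The 3 tables used hold no value per library. A level below is the group level in normalized counts implied by the deposited mean and the deposited fold change, and a fold change is the deposited log2 value of knockout over WT with its standard error (SE). These fold changes are shrunk toward 0 for weakly expressed genes, which draws the implied levels of both groups together. A gene was called where the deposited adjusted p-value was under 0.05. The mean normalized counts summed to between 16467400 and 20214423 per table, and the members took between 0.976% and 1.15% of them. CBFB mRNA fell by 4.88 on the log2 scale (SE 0.14) in CBFB KO. RUNX1 mRNA was higher in KO1 (0.54) and KO2 (0.46), so it does not check the RUNX1 labels. All 12 markers of basal mammary epithelium had a mean above 100 in the CBFB KO and KO1 tables, as did the 11 of them listed for KO2. Of 11 markers of blood, endothelial, stromal and pigment cells, 2 passed that mean in each table, the stromal markers COL1A1 and PDGFRA. In CBFB KO the implied level of COL1A1 was 413 against 156 in WT, and that of PDGFRA was 622 against 644. In both RUNX1 clones COL1A1 was likewise above WT and PDGFRA below it.

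The count of members called differed widely between the tables, as did the precision behind it. In RUNX1 KO1, 55 of the 79 members tested were lower than in WT and 0 were higher. In CBFB KO, 3 of 78 were higher and 2 were lower. In RUNX1 KO2, 1 of 58 was lower and 0 were higher. None of the changes reached 2-fold in any table. The background over all genes tested was 19.9% lower and 19.7% higher in KO1, 7.97% lower and 11.7% higher in CBFB KO, and 6.08% lower and 8.76% higher in KO2. The share of members called was therefore above the background in KO1, where it was 69.6% lower, and below it in the other tables. This background includes weakly expressed genes, whereas 77 members had a mean of 100 or more in KO1. Among genes with that mean outside chromosome 5, 2680 of 10181 were lower in KO1. Of the 79 tested in KO1, 77 lay below 0. At an unadjusted p under 0.05 the deposited test still gave 0 higher members in KO1 and in KO2, with 61 and 3 lower. At that threshold 45.8% of all genes tested passed in KO1 and 24.1% in KO2, counting both directions. The median log2 fold change of the members was -0.33 in KO1, -0.02 in CBFB KO and 0.12 in KO2, where the median of all genes tested was within 0.0205 of 0.

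**Figure D1:**
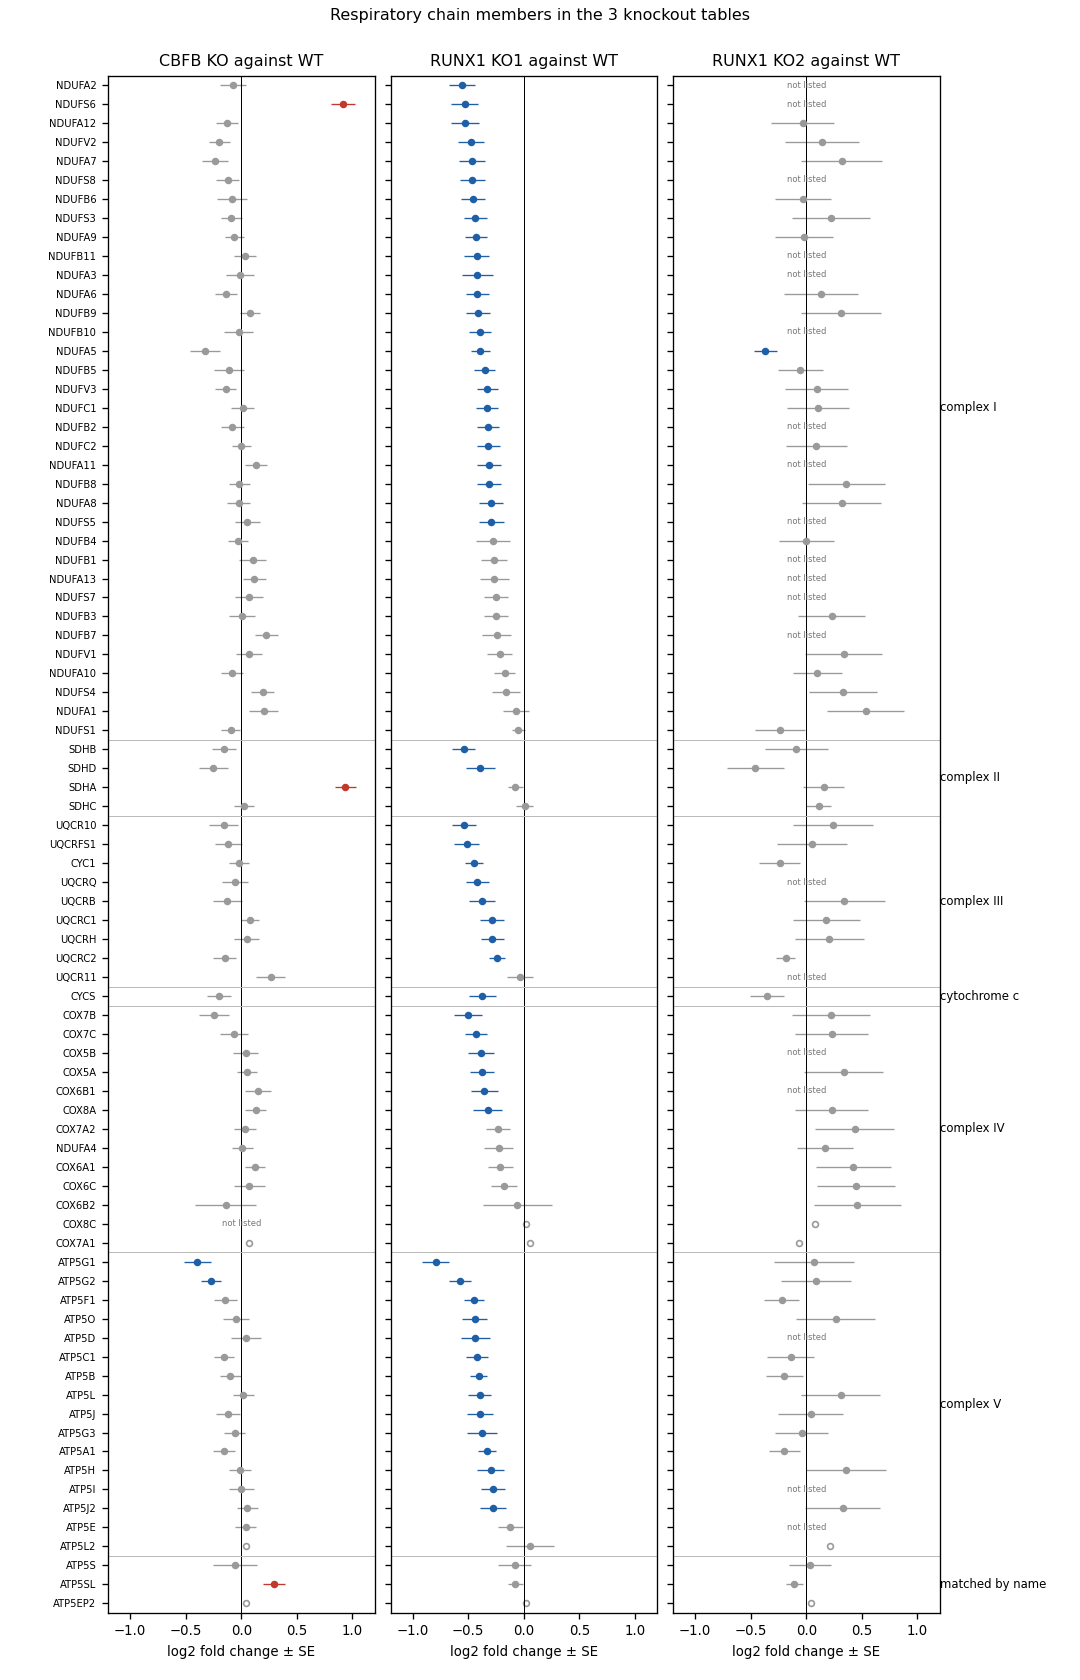
Log2 fold change of 81 of the 82 members against WT, with bars of 1 SE, in the 3 deposited tables (3 samples a group for CBFB KO, 4 for each RUNX1 clone). Blue points are called lower, red points higher and grey points neither, open points have no adjusted p-value, and lines part the complexes. In RUNX1 KO1 nearly all members lie below 0, while in CBFB KO SDHA and NDUFS6 stand apart at 0.94 and 0.92.

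In CBFB KO the 2 largest changes were rises of SDHA and NDUFS6. SDHA encodes the flavoprotein of complex II, which oxidizes succinate, and NDUFS6 encodes an accessory subunit of complex I. The implied level of SDHA (Entrez ID 6389) was 2711 normalized counts in WT and 5187 in CBFB KO. The ratio was 1.91, which is 0.94 in log2 units (SE 0.09). Its adjusted p by the deposited Wald test was 4.24e-21. NDUFS6 (Entrez ID 4726) had a level of 1213 in WT and 2289 in CBFB KO, a ratio of 1.89 (log2 fold change 0.92, SE 0.11, adjusted p = 1.44e-14). The other subunits of complex II did not share the rise of SDHA. SDHB, the iron-sulfur subunit, had a log2 fold change of -0.16, and the membrane anchors SDHC and SDHD had 0.03 and -0.25, none of them called.

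SDHA and NDUFS6 are the members that lie on the short arm of chromosome 5, and most genes of that arm were raised in CBFB KO. Of 88 short-arm genes with a mean of 100 or more, 78 were called higher and 1 lower, with a median ratio to WT of 1.70. The quartiles of their log2 fold changes were 0.60 and 0.98, so SDHA and NDUFS6 lay between the arm's median of 0.76 and its upper quartile. Genes of the long arm had a median of -0.01 and genes of other chromosomes a median of 0.00 when rounded, with 17.1% and 13.2% called higher. The long-arm share counts each gene of the PCDHG cluster, whose genes share sequence and had near-equal values. The 4 members on the long arm were not called. NDUFS4, another accessory subunit of complex I and the member closest to the short arm, had 0.19 on the log2 scale (adjusted p = 0.208, or 0.0461 with the length and GC trend removed), COX7C had -0.07, UQCRQ -0.06 and NDUFA2 -0.07. In the RUNX1 clones the short arm was not raised, with a median of -0.05 in KO1 and -0.12 in KO2. The part of the arm's rise in the values of SDHA and NDUFS6 was not tested.

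The neighbors of the short-arm members moved with them. CCDC127 and PDCD6, the expressed genes on either side of SDHA, had log2 fold changes of 1.02 and 1.12. MRPL36, which encodes a protein of the mitochondrial ribosome, and IRX4 flank NDUFS6 and had 0.78 and 0.84. IRX2, the next expressed gene, had 0.26 and was not called (adjusted p = 0.286).

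**Figure D2:**
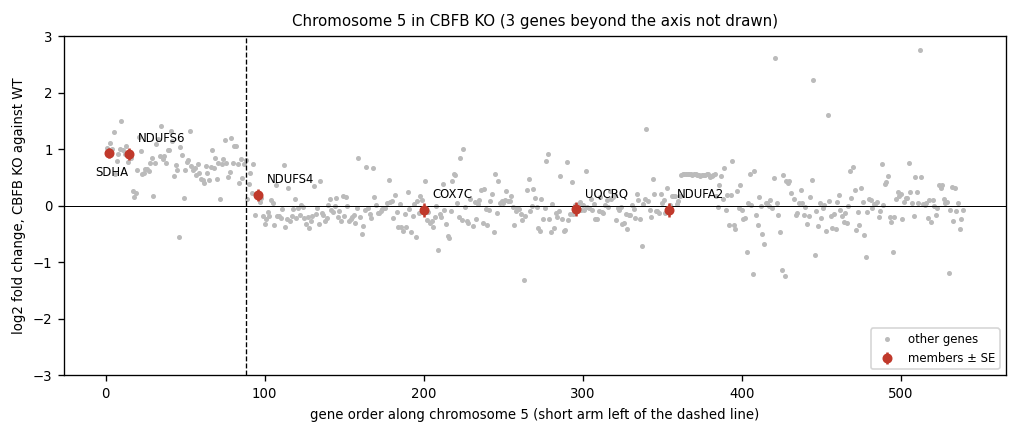
Log2 fold change in CBFB KO against WT of 539 chromosome 5 genes whose mean is 100 or more, in gene order (3 lie beyond the axis), with the short arm left of the dashed line. Red points are the members with bars of 1 SE. SDHA and NDUFS6 sit at 0.94 and 0.92 among raised short-arm genes, and the 4 long-arm members lie between -0.07 and 0.19. The flat run on the long arm is the PCDHG cluster, whose genes share sequence.

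The members that fell in CBFB KO both encode subunit c of the ATP synthase. ATP5G1, ATP5G2 and ATP5G3 encode the same mature protein, which forms the rotating ring in the membrane. ATP5G1 went from 1759 normalized counts in WT to 1338 in CBFB KO, or -0.39 in log2 units (SE 0.12, adjusted p = 0.00851). ATP5G2 went from 2786 to 2306, with -0.27 (SE 0.09, adjusted p = 0.0180). ATP5G3 was at 6263 and 6010 and was not called (log2 fold change -0.06, adjusted p = 0.742). The third called rise belonged to ATP5SL, which despite its name encodes a factor for the assembly of complex I. Its level was 1041 in WT and 1277 in CBFB KO (log2 fold change 0.29, SE 0.10, adjusted p = 0.0198), and the call was lost (adjusted p = 0.0785) once fold changes were freed of their trend on the longest transcript and its GC share.

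The upstream sequences of the 4 subunit genes called in CBFB KO are shown because they set the raised short-arm pair beside the lowered subunit c pair. Each holds the 250 bases before the RefSeq start site in GRCh38.p14, read 5′ to 3′ on the gene's strand. Capitals mark matches on either strand to NRF1 (GCATGCGC), ETS (CCGGAAG), RUNX (TGTGGT), SP1 (GGGCGG) or YY1 (AAGATGGC) letters. The windows are chr5:218070-218319 on the plus strand for SDHA, chr5:1801157-1801406 on the plus strand for NDUFS6, chr17:48892537-48892786 on the plus strand for ATP5G1 and chr12:53676084-53676333 on the minus strand for ATP5G2.
SDHA: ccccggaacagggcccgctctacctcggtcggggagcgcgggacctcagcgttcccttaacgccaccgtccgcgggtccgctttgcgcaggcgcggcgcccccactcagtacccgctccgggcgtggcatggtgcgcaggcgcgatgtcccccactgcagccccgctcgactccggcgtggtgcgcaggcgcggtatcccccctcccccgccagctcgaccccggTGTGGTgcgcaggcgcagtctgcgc
NDUFS6: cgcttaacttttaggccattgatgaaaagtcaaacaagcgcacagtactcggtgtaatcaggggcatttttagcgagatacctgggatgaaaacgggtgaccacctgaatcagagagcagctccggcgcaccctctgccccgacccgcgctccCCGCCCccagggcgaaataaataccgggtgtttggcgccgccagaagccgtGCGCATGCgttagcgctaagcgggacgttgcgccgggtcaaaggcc
ATP5G1: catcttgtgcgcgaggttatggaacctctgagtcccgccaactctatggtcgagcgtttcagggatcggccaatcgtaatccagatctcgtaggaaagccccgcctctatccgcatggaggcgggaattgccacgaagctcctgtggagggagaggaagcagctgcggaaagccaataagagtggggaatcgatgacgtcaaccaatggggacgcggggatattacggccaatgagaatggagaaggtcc
ATP5G2: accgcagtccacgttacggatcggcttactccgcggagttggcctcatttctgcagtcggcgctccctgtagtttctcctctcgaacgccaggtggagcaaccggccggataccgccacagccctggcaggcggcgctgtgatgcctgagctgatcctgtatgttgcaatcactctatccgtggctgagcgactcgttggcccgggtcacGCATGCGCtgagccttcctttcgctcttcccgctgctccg

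None of the 5 sets of letters was in both genes of the raised pair or in both genes of the lowered pair. Only these exact letters were searched, so variants of a motif were not counted and may be shared. SDHA held the RUNX letters once, 25 bases before the start. NDUFS6 held the NRF1 letters 46 bases and the SP1 letters 97 bases before it. ATP5G2 held the NRF1 letters 40 bases before it, and ATP5G1 held none of the 5. A promoter was found for 64 members. The NRF1 letters were in 20.3% of them, against 5.19% of the 8743 promoters of genes whose mean is 100 or more in KO1 and 2.81% of all 27305 promoters. The ETS letters were in 16 of the 64 (25%), against 17.4% and 8.82%. For the RUNX letters the shares were 12.5%, 7.02% and 10.9%, for SP1 54.7%, 69.2% and 42.3%, and for YY1 1.56%, 1.93% and 1.37%. Members with the NRF1 letters had a median log2 fold change in KO1 of -0.39 (13 members) and those without had -0.33 (50 members). Members with the RUNX letters had -0.31 (8 members) and those without had -0.37 (55 members). A match describes letters in this window and not a bound site.

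In RUNX1 KO1 the lowered members came from every complex. Complex V had 14 of 16 tested members lower, complex III 8 of 9, complex I 24 of 36, complex IV 6 of 11 and complex II 2 of 4, and CYCS was lower too. With the trend of fold changes on longest transcript and GC share removed, these counts were 8, 4, 14, 1 and 2, and CYCS was still lower. The share of all genes called in that fit is not given. The 1 call left in complex IV was COX7B (-0.36). The median ratio to WT was 0.760 in complex V, 0.772 in complex III, 0.798 in complex I, 0.799 in complex IV and 0.850 in complex II. Tissue-restricted isoforms are few here: COX6B2, COX7A1 and COX8C had means under 6 wherever listed. As this is RNA of whole cultures, fewer cells of a kind and less RNA per cell cannot be told apart.

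The 2 largest falls in KO1 were those of ATP5G1 and ATP5G2, which encode subunit c. ATP5G1 was at 2323 normalized counts in WT and 1340 in KO1, or -0.79 in log2 units (SE 0.12, adjusted p = 6.4e-10). ATP5G2 was at 3670 and 2467, with -0.57 (SE 0.10). ATP5G3 was at 6717 and 5172, with -0.38 (SE 0.14). All 3 were called lower. Genes of the catalytic head were lower as well, with 1 exception. ATP5B, the catalytic beta subunit, was at 23876 in WT and 18050.5 in KO1 (-0.40, SE 0.08), ATP5A1, the alpha subunit, had -0.33 (SE 0.08) and ATP5C1, the gamma subunit of the central stalk, had -0.42 (SE 0.10). ATP5D, the delta subunit, had -0.44, while ATP5E, the epsilon subunit, had -0.12 and was not called (adjusted p = 0.424). All 4 peripheral stalk genes were lower, from -0.30 (ATP5H) to -0.45 (ATP5F1). Of the small membrane subunits ATP5I had -0.28, ATP5J2 -0.28 and ATP5L -0.40, all lower. With the length and GC trend removed none of these 3 was called and ATP5I was at 0.01. ATP5C1 (-0.17, adjusted p = 0.177) and the stalk genes ATP5H (-0.13) and ATP5J (-0.19) lost their calls in that fit too.

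In complex I, 3 of the 7 core subunits and 21 of the 29 accessory subunits were lower in KO1. The core subunits carry the electron path from NADH. NDUFV2 had a log2 fold change of -0.48, NDUFS8 -0.46 and NDUFS3 -0.44, all lower. NDUFS7 (-0.25, adjusted p = 0.0559), NDUFV1 (-0.22, adjusted p = 0.114) and NDUFS1 (-0.05, adjusted p = 0.537) were not called. With the length and GC trend removed NDUFS7 (-0.32) and NDUFS1 (-0.23) were called lower, and NDUFV2 (-0.19) was not. The largest falls among accessory subunits were those of NDUFA2 (-0.56, SE 0.12), NDUFS6 (-0.53, SE 0.12) and NDUFA12 (-0.53, SE 0.12). With the trend removed NDUFA2 (-0.30) and NDUFS6 (-0.32) were still called and NDUFA12 (-0.24, adjusted p = 0.120) was not. NDUFS6 thus was called higher in CBFB KO and lower in KO1. It was the member called in opposite directions.

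Complex II was split in KO1. SDHB was at 2921 in WT and 2006 in KO1 (log2 fold change -0.54, SE 0.11) and SDHD had -0.39 (SE 0.13), both lower. SDHA had -0.08 (SE 0.06) and SDHC 0.01 (SE 0.08), and neither was called, though SDHC was called lower (-0.18) with the length and GC trend removed. In that fit SDHB (-0.30) was still called and SDHD (-0.16, adjusted p = 0.360) was not. Of complex III, CYC1, which carries the heme of cytochrome c1, had -0.45 (SE 0.08) and UQCRFS1, the Rieske iron-sulfur protein, had -0.51 (SE 0.11). UQCR10, a small subunit, had -0.54 (SE 0.10), and UQCR11 was the member of complex III not called (-0.04, adjusted p = 0.838). Cytochrome c itself, from CYCS, had -0.37 (SE 0.12, adjusted p = 0.00783). RefSeq annotates 45 pseudogenes of CYCS, the most of any member, and reads of near-identical copies may be split. In complex IV, whose catalytic subunits are mitochondrially encoded, COX7B (-0.50), COX7C (-0.43), COX5B (-0.38), COX5A (-0.38), COX6B1 (-0.36) and COX8A (-0.32) were lower.

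Short transcripts as a whole were lower in KO1. Over all genes whose mean was 100 or more, the median log2 fold change was -0.34 for longest transcripts under 1000 nt, -0.24 from 1000 to 2000 nt, -0.08 from 2000 to 4000 nt and 0.10 over 4000 nt. The members are short, with a median longest transcript of 1439 nt against 3722.5 nt for all genes above that mean. In the shortest class 17 of 23 members were lower, against 57.8% of all genes, and the medians were -0.31 and -0.34. In the longest class 8 of 12 members were lower, against 13.9% of all genes, and the medians were -0.34 and 0.10. By longest transcript the members' fold changes hardly followed length, with a Spearman rho of 0.07 over 77 members against 0.36 over 10614 genes. No such correlation is given for coding length. These genes share libraries, so the correlations only describe them.

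The longest transcript can be an unusual form, as for NDUFA9, where it has 8363 nt and the median protein-coding transcript 642 nt. With the median protein-coding length, chosen after seeing the data, 26 of 33 members between 500 and 750 nt were lower in KO1, against 35.5% of all genes of that length, with medians of -0.38 and -0.09. Under 500 nt 5 of 8 members were lower, against 45% of all genes, with medians of -0.28 and -0.23. From 750 to 1000 nt 14 of 18 were lower, against 37.7%, and from 1000 to 1500 nt 5 of 8, against 33.3%. From 1500 to 2500 nt 3 of 8 were lower, against 28.2%, and above that 2 of 2, against 13.4%. Once the trend on longest length and GC share was taken out, 30 members were lower in KO1, 26 of them among the 55, and the median was -0.19. With the trend on coding length removed, 39 were lower, all among the 55, and the median was -0.26. The share of all genes called lower is not given for either fit, so these counts have no background. ATP5G1 and ATP5G2 were called lower in both fits, at -0.64 and -0.40 with longest length and at -0.68 and -0.45 with coding length. ATP5G3 was called with longest length (-0.45) and not with coding length (-0.26, adjusted p = 0.116). The part of the length trend in the members' fall was not tested further.

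**Figure D3:**
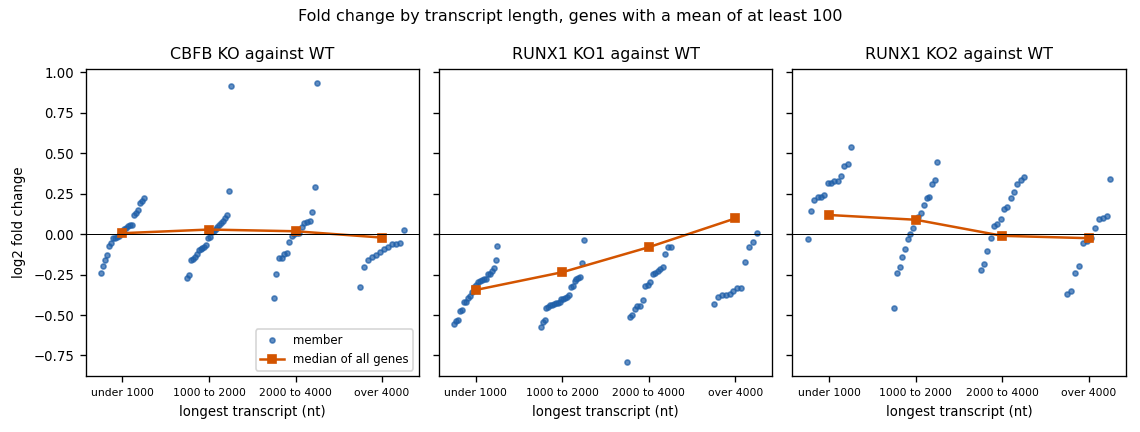
Log2 fold change against WT by the length of the longest transcript, for genes whose mean is 100 or more. Blue points are members, spread sideways in order of their value, and orange squares are the median of all genes of that length. In RUNX1 KO1 the orange line climbs from -0.34 to 0.10 while the members' median stays between -0.31 and -0.40.

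RUNX1 KO2 shares its WT libraries with KO1, so the clones' values are given side by side with no test between them. The only member called in KO2 was NDUFA5, an accessory subunit of complex I, at 993 normalized counts in WT and 769 in KO2 (log2 fold change -0.37, SE 0.11, adjusted p = 0.00582). It had -0.39 in KO1, where it was called lower, and -0.33 in CBFB KO, where it was not (adjusted p = 0.0709). The call in KO2 was lost with the length and GC trend removed (-0.21, adjusted p = 0.217). ATP5G1 had 0.06 (SE 0.36) in KO2 against -0.79 in KO1, and SDHB had -0.09 (SE 0.28) against -0.54. CYCS had -0.35 (SE 0.15, adjusted p = 0.101) against -0.37. Of the tested members 40 of 58 lay above 0 in KO2. All 9 tested members of complex IV did, with a median of 0.34 and a median SE of 0.35, while ATP5A1 (-0.20), ATP5B (-0.20) and ATP5C1 (-0.14) lay below 0. None of these was called.

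Precision was lower in KO2 and lowest for short transcripts. The median SE of members whose mean was 100 or more was 0.30 in KO2, against 0.11 in KO1 and 0.10 in CBFB KO. Over all genes in KO2 it was 0.32 under 1000 nt and 0.19 from 2000 to 4000 nt. The length trend ran the other way, from a median of 0.12 under 1000 nt to -0.02 over 4000 nt, and the members' medians in these classes were 0.32 and -0.03. The median change in KO1, -0.33, is about 1 such SE, so a change of that size was not detectable in KO2 for most members.

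Many members have no value in KO2. Of the 77 members whose mean reached 100 in some table, 20 (26.0%) were not listed for KO2, against 359 of 11128 genes (3.23%). They were the complex I genes NDUFA2, NDUFA3, NDUFA11, NDUFA13, NDUFB1, NDUFB2, NDUFB7, NDUFB10, NDUFB11, NDUFS5, NDUFS6, NDUFS7 and NDUFS8, with UQCRQ and UQCR11 of complex III, COX5B and COX6B1 of complex IV, and ATP5D, ATP5E and ATP5I of complex V. Among genes whose mean reached 100 in KO1, 31.9% of those under 1000 nt were not listed for KO2, falling to 0.558% over 4000 nt. For members the shares were 9 of 23 under 1000 nt, 7 of 24 from 1000 to 2000 nt, 4 of 18 from 2000 to 4000 nt and 0 of 12 above. The missing members also had a higher GC content, with a median of 55.9% against 45.5% for those listed. In KO1, 14 of the 20 were lower, with a median of -0.34, and 41 of the 57 listed members were, with a median of -0.35. The counts in KO2 rest on the members its table lists. COX8C was not listed for CBFB KO, and COX7A1, COX8C, ATP5L2 and ATP5EP2 had no adjusted p-value in at least 1 table.

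**Figure D4:**
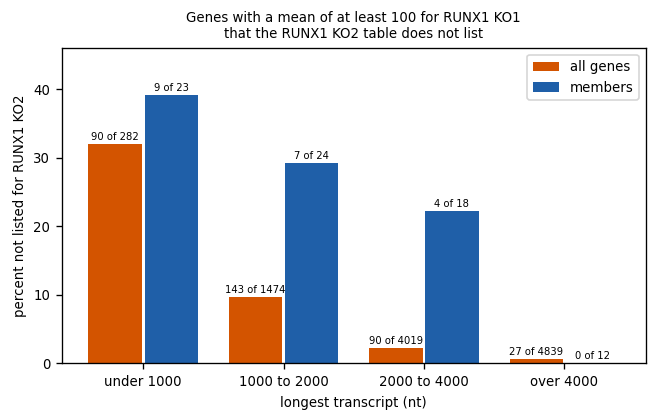
Percent of genes whose mean reached 100 in the RUNX1 KO1 table that the RUNX1 KO2 table does not list, by length of the longest transcript, for all genes (orange) and members (blue), with the counts above the bars. The share falls from 31.9% to 0.558% for all genes, and for members from 9 of 23 to 0 of 12.

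CBFB KO and the RUNX1 clones share no library, so the difference of their fold changes could be tested. Each fold change is against the WT of its own experiment, so a difference does not separate the lost gene from the experiment. The test was a two-sided normal test on the combined SE, adjusted over all genes tested in both tables. Against KO1, 13 of 78 members had a higher fold change in CBFB KO and 0 a lower one, where the background was 5.72% higher and 4.12% lower. At an unadjusted p under 0.05 the counts were 44 and 0, with no share of all genes given at that threshold. The largest differences were those of NDUFS6 at 1.45 (95% interval 1.13 to 1.77, adjusted p = 3.94e-16) and SDHA at 1.01 (0.79 to 1.24, adjusted p = 4.44e-16). The other 11 differed by 0.37 to 0.51. With the length and GC trend removed from both tables, 3 members were left, namely NDUFS6 (1.21), SDHA (0.93) and NDUFA9 (0.56). With the coding length in its place there were 4, namely NDUFS6 (1.30), SDHA (0.97), UQCRFS1 (0.51) and ATP5L (0.42).

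Against KO2, 2 of 58 members had a higher fold change in CBFB KO and 0 a lower one, with a background of 1.28% higher and 1.62% lower. At an unadjusted p under 0.05 the counts were the same, again with no share of all genes given. SDHA differed by 0.78 (95% interval 0.38 to 1.18, adjusted p = 0.00887) and ATP5SL by 0.40 (0.16 to 0.64, adjusted p = 0.0419). NDUFS6 has no value in KO2.

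**Figure D5:**
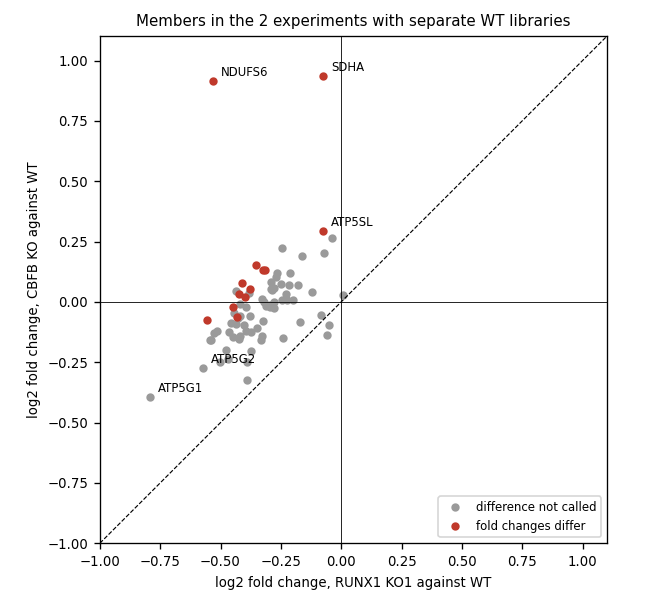
Log2 fold change of 78 members in CBFB KO against that in RUNX1 KO1, each against its own WT, with the line of equality dashed. Red points mark the 13 members whose fold changes differ at an adjusted p under 0.05. In all, 76 members lie above the line, and NDUFS6 and SDHA lie farthest from it.

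Lists of genes that build or serve the chain were counted in KO1 as well, where 19.9% of all genes were lower, 19.7% were higher and the median was 0.00 when rounded. Of 18 complex I assembly factors tested, 11 were lower and 0 higher, with a median of -0.33. ECSIT had -0.76 and NDUFAF4 -0.54. Of 14 factors for complexes II, III and V, 7 were lower, with 0 higher, among them ATPAF1 (-0.60), a chaperone of the F1 head, and UQCC2 (-0.69). Of 23 complex IV factors 14 were lower, among them COA5 (-0.76) and the copper carrier SCO1 (-0.38). Of 75 mitochondrial ribosomal proteins 66 were lower and 0 higher, with a median of -0.37. Of 17 genes of pyruvate oxidation and the citric acid cycle 11 were lower, among them FH (-0.57) and MDH2 (-0.40), and OGDH was higher (0.34). Of 17 regulators of mitochondrial gene expression 7 were lower, among them TFAM (-0.55), which packages mitochondrial DNA. Of 8 further genes, for subunits or proteins associated with them, 2 were lower, NDUFAB1 (-0.47) and USMG5 (-0.29), a share near that of all genes. With the length and GC trend removed the lower counts in the same order were 8, 6, 8, 32, 7, 7 and 0. The shares of all genes above do not come from that fit.

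In CBFB KO, where 11.7% of all genes were higher and 7.97% lower, and in KO2, where 8.76% were higher and 6.08% lower, the same lists held these calls. In CBFB KO the complex I factors had 2 of 18 higher, NDUFAF3 (0.31) and ATP5SL, and the factors for complexes II, III and V had 2 of 14 lower, ATPAF1 (-0.45) and LYRM7 (-0.40). TFAM (-0.43) and PPARGC1B (-0.49), a coactivator of mitochondrial genes, were lower in CBFB KO. DNAJC30 (0.46), from the list of further subunits and associated proteins, was higher. The mitochondrial ribosomal proteins had 4 higher and 3 lower of 75 there. MRPL36 (0.78) and MRPS30 (0.81), which belong to this list, lie on the raised short arm of chromosome 5. In KO2, UQCC1 (-0.38), TMEM70 (-0.51), NDUFAF6 (-0.39), SCO1 (-0.32) and C10orf2 (-0.40), the mitochondrial DNA helicase, were lower, as were 4 of 62 mitochondrial ribosomal proteins. UQCC1 and TMEM70 are 2 of 12 factors tested for complexes II, III and V there. None of the 17 genes of pyruvate oxidation and the citric acid cycle was called by the deposited test in CBFB KO or KO2. With the length and GC trend removed, NDUFAF3 (adjusted p = 0.164), ATP5SL, LYRM7 (adjusted p = 0.0603) and TFAM (adjusted p = 0.0654) lost their calls in CBFB KO, as did NDUFAF6 (adjusted p = 0.0663) in KO2. Calls were also gained in that fit: the regulators POLRMT (-0.35) and C10orf2 (-0.43) were called lower in CBFB KO. The mitochondrial ribosomal proteins had 2 higher and 4 lower in CBFB KO in that fit, and 3 lower in KO2.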

How the data were processed

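RNA-seq of 18 MCF10A samples was used. The submitters' notes name Trimmomatic, STAR, DESeq2 and hg19, with no versions. The labels name a TruSeq mRNA kit, whereas ribosomal RNA depletion is given in the study's methods. The authors deposited 3 knockout tables with a mean of normalized counts (a signal), a log2 fold change with its SE, a Wald score, and p-values, made with DESeq2 by the authors. These deposited log2 fold changes, scores and p-values are the authors' own comparisons and were used because these tables hold no per-sample values. Matrices that the labels also name were not analysed here. The deposited fold changes are shrunk: below a mean of 3 the largest log2 fold change was 1.61.

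Genes were joined by Entrez ID. With equal group sizes, group levels followed from mean and fold change. Lengths and GC content came from GENCODE 29, names, gene order, pseudogenes and promoters from RefSeq (GRCh38.p14). Since the builds differ, the authors' coordinates are not given. The trend was a natural cubic spline with 5 knots for each of log2 length and GC, fitted on genes with a mean of at least 100 and centred on them. Calls and differences used Benjamini-Hochberg adjustment over all genes tested. Shares of all genes called are given for the deposited fold changes only. The procedures were tested on simulated data. Python 3.11.15, numpy 2.4.6 and scipy 1.17.1 were used.

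Genes named by rule were the catalytic or electron-carrying core, with COX5A and COX5B, and the 8 largest called rises and falls per table. The rule also took members past 2-fold, differing between CBFB KO and a clone, or on the short arm of chromosome 5. Members called in opposite directions, or missing from a table or its test, were taken too. Other members are named where their complex is described. Members and lists were chosen with earlier results of these data known. Values of 1 member are not reported here. Alternatives are in the closing section.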

Additional observations from a re-analysis of the deposited data

Results flagged for a closer look

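The fold changes of 13 members differed between CBFB KO and RUNX1 KO1 by the test of the difference itself, each higher in CBFB KO. The differences on the log2 scale were 1.45 for NDUFS6, 1.01 for SDHA, 0.51 for COX6B1, 0.49 for NDUFB9, 0.48 for NDUFA2, 0.46 for NDUFB11, 0.45 for COX8A, 0.45 for NDUFA11, 0.43 for COX5A, 0.43 for CYC1, 0.42 for ATP5L, 0.37 for ATP5SL and 0.37 for NDUFA9. Against RUNX1 KO2 the differences were 0.78 for SDHA and 0.40 for ATP5SL. With the length and GC trend removed 3 of the 13 were still called. NDUFS6 and SDHA lie on the short arm of chromosome 5, whose median ratio to WT in CBFB KO was 1.70. The part of either in the differences was not tested. CBFB KO and the RUNX1 clones were each compared with the WT of their own experiment, and the part of the experiment was not tested.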

How the results depend on the processing

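No paired analysis was possible because the 3 tables used here hold no value per sample. The matrices that the labels also mention were not analysed here, and for the same reason neither the replicate block nor leaving out a replicate was run. With a fold change of at least 2 required, the 3 higher and 2 lower members of CBFB KO, the 55 lower of KO1 and the 1 lower of KO2 all became 0, since no member reached it. With the trend on longest transcript length and GC content removed, the lower members fell to 30 in KO1 and 0 in KO2, the median in KO1 moved to -0.19, and the members with a higher fold change in CBFB KO than in KO1 fell from 13 to 3. The trend on coding length, added after seeing the data, gave 4 for the last of these, 39 lower members in KO1 and 1 in KO2, which was ATP5SL (-0.20) in place of NDUFA5. Removing the first trend changed the sign of 13 members in KO1, 3 of them called before. Among the genes named by rule it turned ATP5I (0.00802) and NDUFS5 (0.0356) in KO1 to above 0, neither called, and SDHC (-0.18) to below 0, called lower. Restricting genes to a mean of at least 100 gave 59 lower members in KO1 and 15 differing from CBFB KO, and centring on all genes gave 53 lower in KO1. Without the members that have an annotated pseudogene the median was 0.00 for CBFB KO, while KO1 had -0.29 and KO2 had 0.10. In KO2 the SE limits what can be seen.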
